A study of Mus musculus with 16 samples.

Results

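The genes described are 9 that build the signalling end of the T-cell receptor: the CD3 chains Cd3d, Cd3e, Cd3g and Cd247, the kinases Lck and Zap70, the adaptors Lat and Lcp2, and the surface glycoprotein Thy1. They were chosen by symbol, and all 9 were found among the 55414 Ensembl identifiers of the count table. RNA was measured in 16 bulk libraries of sorted mouse leukaemia cells. All 16 came from one model labelled pro-B acute lymphoblastic leukaemia (Pro B-ALL) with the genotype "miR-128a overexpressing Kmt2a-AFF1+", so the microRNA and the fusion gene were shared by every group and no group without them was measured. Cells were taken from bone marrow (BM) or from the central nervous system (CNS). They were sorted as lineage-negative cells positive for Sca1, cKit and IL7R (LSK), or as lineage-negative, cKit-positive cells without Sca1 (LK; the titles write LK/CLP). Crossing tissue and sort gives BM LSK, CNS LSK, BM LK and CNS LK, with 4 libraries in each of these 4 groups. What drives the microRNA and the fusion, the animals' ages, whether animals were pooled, and which antigens made up the lineage gate are not given in the sources used here. Because nothing says that libraries of a group came from separate animals, p-values measure the spread between libraries, which may be technical.

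In a mature T cell the antigen-binding receptor chains have no signalling tails of their own. They pair with CD3 delta, epsilon and gamma (Cd3d, Cd3e, Cd3g) and with the zeta chain (Cd247), whose tails carry tyrosine motifs called ITAMs. Lck phosphorylates these motifs, Zap70 binds them, and Zap70 then phosphorylates the adaptors LAT (Lat) and SLP-76 (Lcp2), on which the downstream enzymes assemble. B cells use a parallel set for the same steps: Cd79a and Cd79b carry the motifs, Syk stands in the place of Zap70, and Blnk in the place of Lcp2. In human B-cell leukaemias ZAP-70 is known as a kinase that can appear outside the T lineage.

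Libraries ran from 19.2 to 29.2 M counts. A level is given as counts-per-million (CPM), with library sizes scaled by TMM factors. Where genes are compared with each other the CPM were divided by exon length in kilobases (CPM per kb). That length joins all annotated exons of a gene, whichever transcripts the cells made, so ratios between genes depend on it. As a background level, 1464 olfactory and vomeronasal receptor genes, which most tissues do not transcribe, were measured the same way. Their 95th percentile ran from 0.0855 to 0.258 CPM per kb between libraries. This is a low bar: Cd28, at a median of 0.255 CPM per kb, stood at a median percentile of 50.5 among coding genes. The share of all coding genes above the bar was not counted, so counts of listed genes above it lack that comparison.

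The 9 genes fell into an abundant set and a set near that background. Thy1, Lck and Lat were among the most abundant coding genes, with a median percentile of 99.2, 98.9 and 98.7 among coding genes ranked per kb. Cd247 (median percentile 96.1), Zap70 (95.6) and Lcp2 (82.0) followed. Cd3d, Cd3g and Cd3e, which are required to bring the receptor to the surface of T cells, stood at median percentiles of 52.8, 45.3 and 23.2. The zeta chain was thus abundant in libraries with few counts of its CD3 partners, in all 4 groups.

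**Figure D1:**
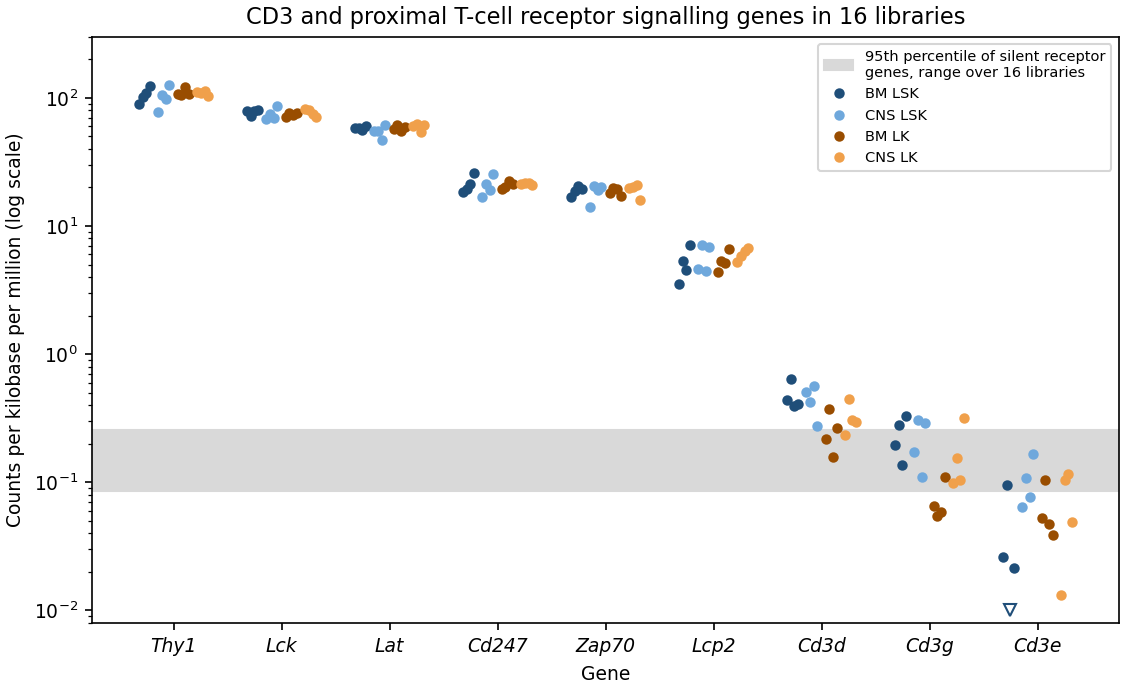
Counts-per-kilobase-per-million (log scale) of the 9 genes in each of the 16 libraries, coloured by group, 4 points per group; the grey band spans the 95th percentile of the receptor genes over the libraries. Cd3e in BM LSK 3 had a value of 0 and is drawn as an open triangle at the foot. From Thy1 to Lcp2 every point lies above the band, while Cd3d, Cd3g and Cd3e reach into it or below.

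The CD3 chains differed most among themselves. Cd247 (ENSMUSG00000005763; GRCm38 chromosome 1, 165788681 to 165877277, plus strand) had 98.7, 104, 113 and 137 CPM in BM LSK libraries 1 to 4, and 89.6, 112, 101 and 135 in CNS LSK. In BM LK it had 105, 107, 119 and 114 CPM, and in CNS LK 113, 116, 116 and 111. The groups overlapped, and the lowest and the highest values were both in LSK cells. Pou2f1, a coding gene on the other strand that overlaps Cd247, had 41.2 to 54.3 CPM, and whether strand was used in the counting is not given in the sources used here, so some reads of the pair could have been exchanged.

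Cd3d (ENSMUSG00000032094; GRCm38 chromosome 9, 44981786 to 44987339, plus strand) had 0.797, 1.16, 0.711 and 0.738 CPM in BM LSK and 0.912, 0.762, 1.03 and 0.498 in CNS LSK. In BM LK it had 0.394, 0.680, 0.287 and 0.479 CPM, and in CNS LK 0.427, 0.804, 0.559 and 0.535. These values rest on 6 to 33 counts per library. They lay above the receptor genes' 95th percentile in 16 of 16 libraries. All 4 BM LSK values exceeded all 4 BM LK values, and 3.13% of all 18878 tested genes had no overlap between these groups, in either direction.

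Cd3g (ENSMUSG00000002033; GRCm38 chromosome 9, 44969572 to 44980431, minus strand) had 0.638, 0.918, 0.445 and 1.09 CPM in BM LSK and 0.564, 1.00, 0.358 and 0.951 in CNS LSK. It had 0.215, 0.179, 0.192 and 0.359 CPM in BM LK and 0.320, 0.508, 0.344 and 1.04 in CNS LK, from 4 to 31 counts. It was above the receptor percentile in 8 of 16 libraries. BM LK held the 3 lowest values, and CNS LK replicate 4 stood with the LSK libraries.

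Cd3e (ENSMUSG00000032093; GRCm38 chromosome 9, 44998740 to 45009627, minus strand) encodes the chain that pairs with either CD3 delta or CD3 gamma. It had 0.106, 0.388, 0 and 0.0869 CPM in BM LSK, 0.260, 0.441, 0.313 and 0.679 in CNS LSK, 0.215, 0.429, 0.192 and 0.160 in BM LK and 0.0534, 0.423, 0.473 and 0.201 in CNS LK. That is 0 to 15 counts per library, above the receptor percentile in 0 of 16. The count of 0 in BM LSK replicate 3 allows a level of up to 0.133 CPM (3 counts), which covers counting error only. At this depth Cd3e could not be told from the background.

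Per kilobase, Cd247 stood at a median of 58.6 times Cd3d (30.4 to 141 between libraries) and 148 times Cd3g (65.7 to 382). Against Cd3e the median ratio was 263 over the 15 libraries with a Cd3e count. A like split was seen in the receptor chains themselves. Trbc2, a constant segment of the beta chain, had a median of 171 CPM per kb and Trac, the constant segment of the alpha chain, 0.210, from 1 to 11 counts per library. Ptcra, the surrogate alpha chain of immature thymocytes, had 69.3. Of the constant segments of the gamma chain, Tcrg-C4 had 155, Tcrg-C2 106 and Tcrg-C1 35.9. Trdc, the constant segment of the delta chain, had 0.0906 and was above the receptor percentile in 2 of 16 libraries. Trbc1 (61.5) and Trbc2 are near-identical copies, so the division of counts between them is uncertain.

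Cd3g, Cd3d and Cd3e lie together within 40.1 kb of chromosome 9, and Cd3g and Cd3d are transcribed away from each other from starts 1355 bases apart. On the Cd3g side, Ube4a, 3.97 kb away, had a median of 6.13 CPM per kb and Kmt2a, 88.3 kb away, 13.4. Atp5l (4.13), Arcn1 (5.81) and Ift46 (1.17) on the same side were above the receptor percentile in 16 of 16 libraries, while Tmem25 (0.238) was in 13, Ttc36 (0.0479) in 2 and Phldb1 (0.120) in 1. On the Cd3e side, the 8 coding genes from Mpzl2 to Il10ra had medians of 0.0464 to 0.122 CPM per kb and were above it in at most 3 of 16. Kmt2a is also the gene fused in this model, so its counts may include the fusion.

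**Figure D2:**
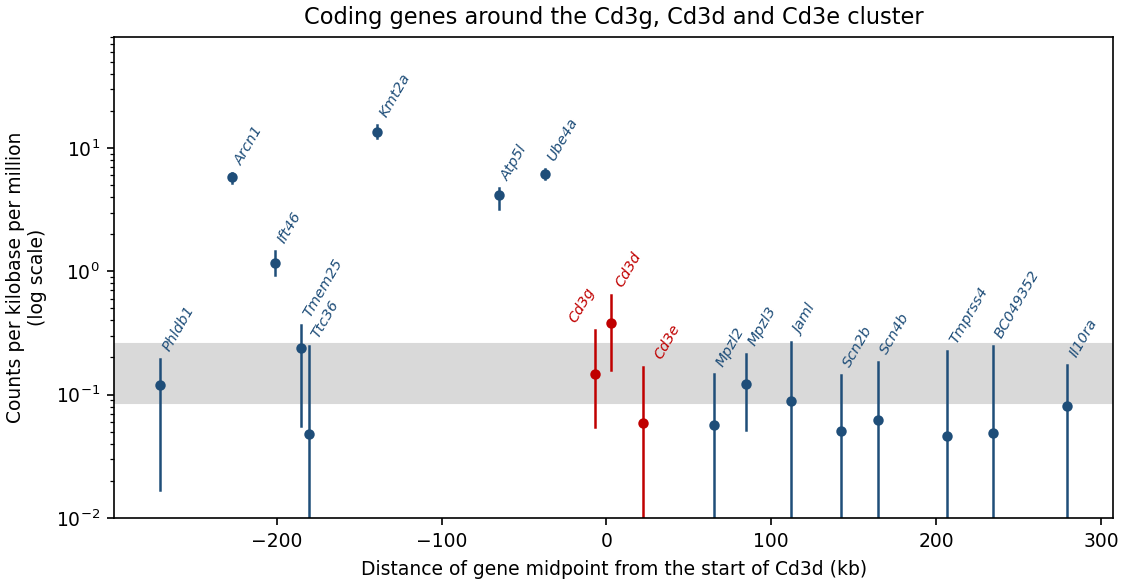
Counts-per-kilobase-per-million (log scale) of coding genes around the Cd3g, Cd3d and Cd3e cluster (red) against the distance of each gene's midpoint from the start of Cd3d in kb; points are medians and bars the lowest to highest of 16 libraries, and a bar that meets the lower axis has a lowest value under 0.01. Ube4a, Atp5l, Kmt2a, Ift46 and Arcn1 on the left lie above the grey band of receptor genes (0.0855 to 0.258), Tmem25, Ttc36 and Phldb1 on the left have medians in or below it, and so do the 8 genes on the right.

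Promoters are shown for the 3 scarce CD3 genes of this cluster beside 2 abundant members on other chromosomes, Cd247 and Lck. Promoter sequences from RefSeq (GRCm38.p6) matched 8 of the 9 members, with 11 entries. The 250 bases before the start are given 5′ to 3′ on the gene's strand for the 3 clustered CD3 genes and for Cd247 and Lck (its entry farthest upstream). Capitals mark GGAA, the core of ETS factor sites, and TGTGGT, a RUNX site, on either strand (TTCC and ACCACA are their complements).
Cd3g (chr9:44980432-44980681, minus strand): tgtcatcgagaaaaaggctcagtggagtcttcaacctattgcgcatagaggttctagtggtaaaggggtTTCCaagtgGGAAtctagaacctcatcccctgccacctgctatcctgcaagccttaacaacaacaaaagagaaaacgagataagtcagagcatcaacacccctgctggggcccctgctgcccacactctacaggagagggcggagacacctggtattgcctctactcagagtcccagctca
Cd3d (chr9:44981536-44981785, plus strand): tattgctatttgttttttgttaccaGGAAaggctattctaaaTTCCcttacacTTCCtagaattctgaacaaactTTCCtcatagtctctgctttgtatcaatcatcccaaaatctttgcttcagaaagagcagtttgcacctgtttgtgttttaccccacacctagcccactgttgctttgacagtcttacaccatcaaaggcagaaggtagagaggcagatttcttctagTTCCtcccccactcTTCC
Cd3e (chr9:45009612-45009861, minus strand): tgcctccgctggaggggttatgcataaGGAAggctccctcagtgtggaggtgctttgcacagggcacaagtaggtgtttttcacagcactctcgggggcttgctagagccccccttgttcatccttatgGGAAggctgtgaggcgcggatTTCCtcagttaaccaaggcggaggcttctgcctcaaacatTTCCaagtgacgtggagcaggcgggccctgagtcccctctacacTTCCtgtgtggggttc
Cd247 (chr1:165788431-165788680, plus strand): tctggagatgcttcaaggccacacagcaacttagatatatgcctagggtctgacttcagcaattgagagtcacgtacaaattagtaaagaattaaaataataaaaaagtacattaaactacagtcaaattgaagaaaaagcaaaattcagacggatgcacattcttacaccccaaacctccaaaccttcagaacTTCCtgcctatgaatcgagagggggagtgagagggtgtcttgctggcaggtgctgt
Lck (chr4:129573642-129573891, minus strand): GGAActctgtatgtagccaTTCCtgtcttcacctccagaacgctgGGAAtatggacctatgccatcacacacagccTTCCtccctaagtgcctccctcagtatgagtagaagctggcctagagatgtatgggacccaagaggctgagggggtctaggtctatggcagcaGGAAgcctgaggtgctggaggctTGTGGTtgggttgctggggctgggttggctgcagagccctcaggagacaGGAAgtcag
GGAA occurred 6 times in the Cd3d window, 6 in that of Lck, 5 in that of Cd3e, 2 in that of Cd3g and once in that of Cd247. It is too common to set them apart, since 93.4% of all 32851 windows of this length hold it. TGTGGT was in 14.0% of all windows; among the members it was in this Lck entry and in 1 of 3 Zap70 entries. CTTTGA, a TCF/LEF site found in 13.8% of windows, matched at 2 places in the Cd3d window and was in none of the other windows printed. The GC content was 41.2% for Cd3d and for Cd247 and 51.6% to 57.2% for the other 3 windows printed. A match describes letters only, and neither the number of GGAA letters nor the GC content separated the abundant from the scarce genes.

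Lck (ENSMUSG00000000409; GRCm38 chromosome 4, 129548344 to 129573641, minus strand), the kinase that starts the cascade, was even across the study. It had 232, 213, 230 and 234 CPM in BM LSK, 199, 219, 205 and 252 in CNS LSK, 208, 223, 214 and 222 in BM LK and 239, 235, 219 and 206 in CNS LK. The groups overlapped throughout. Over the 16 libraries its log2 level had an SD of 0.092, and 35.1% of 456 genes of like count had a smaller one. Zap70 (ENSMUSG00000026117; GRCm38 chromosome 1, 36761798 to 36782818, plus strand) had 56.6 ± 4.68 CPM in BM LSK, 55.6 ± 9.26 in CNS LSK, 55.6 ± 4.00 in BM LK and 57.5 ± 6.32 in CNS LK (SD, n = 4). Its lowest library was CNS LSK 1 at 42.0 CPM and its highest CNS LK 3 at 62.4.

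Among the adaptors, Lat (ENSMUSG00000030742; GRCm38 chromosome 7, 126363824 to 126369570, minus strand) had 160 ± 4.50 CPM in BM LSK, 151 ± 16.7 in CNS LSK, 161 ± 7.59 in BM LK and 165 ± 9.35 in CNS LK (SD, n = 4). Lcp2 (ENSMUSG00000002699; GRCm38 chromosome 11, 34046920 to 34092295, plus strand) was lower and more variable. It had 15.7, 23.7, 20.2 and 31.8 CPM in BM LSK, 20.8, 31.5, 19.7 and 30.3 in CNS LSK, 19.7, 24.0, 22.9 and 29.4 in BM LK and 23.4, 25.9, 28.4 and 30.2 in CNS LK. Replicate 4 was high in all 4 groups. The SD of its log2 level, 0.292, was larger than that of 95.5% of 2663 genes of like count, the widest spread among the 6 abundant members beside their peers.

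Thy1 (ENSMUSG00000032011; GRCm38 chromosome 9, 44043384 to 44048579, plus strand) encodes a lipid-anchored protein of thymocytes and T cells that mouse neurons also carry. It had 270, 304, 324 and 369 CPM in BM LSK and 233, 315, 292 and 374 in CNS LSK. In LK cells it had 319, 317, 365 and 321 CPM from BM and 332, 330, 340 and 312 from the CNS. Within LSK, replicate 1 was lowest and replicate 4 highest in both niches, while the LK libraries lay close together apart from BM LK 3. Of 12 neural, glial and meningeal markers, Tubb3 and Mbp were above the receptor percentile in 16 of 16 libraries and the neuronal genes Snap25 and Syt1 in 0 of 16. The list summed to 51.9 to 60.6 CPM in BM LSK, 49.5 to 69.3 in CNS LSK, 51.2 to 65.1 in BM LK and 52.9 to 60.2 in CNS LK, with ranges that overlapped between niches. Mbp and Tubb3, at median CPM of 34.9 and 14.1, made up most of these sums. The overlap therefore cannot show whether the scarcer markers differed between niches.

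The order of the 9 genes per kilobase was nearly the same in every library. The medians were 107 CPM per kb for Thy1, 75.3 for Lck, 57.9 for Lat, 21.1 for Cd247, 19.4 for Zap70, 5.35 for Lcp2, 0.383 for Cd3d, 0.146 for Cd3g and 0.0583 for Cd3e. Thy1 exceeded Lck, Lck exceeded Lat, Lat exceeded Cd247, Zap70 exceeded Lcp2 and Lcp2 exceeded Cd3d in 16 of 16 libraries each. Cd247 and Zap70 were close, with a ratio of 0.990 to 1.33, and Cd247 was the higher in 15 of 16. Cd3d exceeded Cd3g in 14 of 16 (median ratio 2.55) and Cd3g exceeded Cd3e in 14 of 16 (median ratio 2.70 over the 15 libraries with a Cd3e count), with ranges over the libraries that overlapped in both cases.

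Zap70, Lcp2 and Cd247 exceeded the B-cell counterparts Syk, Blnk and Cd79a. Per kilobase, Zap70 was a median of 5.79 times Syk (4.45 to 7.02), Lcp2 37.9 times Blnk (7.93 to 129) and Cd247 32.4 times Cd79a (11.5 to 188), each in 16 of 16 libraries. Part of the first ratio is length: median CPM were 58.1 for Zap70 (2992 bases) and 31.8 for Syk (9362 bases). The order was the other way for the phospholipases, with Plcg2 at 17.0 to 24.6 CPM per kb and Plcg1 at 8.13 to 12.2. Their median CPM, before division by length, were closer, at 93.4 and 78.1. Cd79a had a higher median (0.661 CPM per kb, 0.116 to 1.46) than Cd3d (0.383, 0.158 to 0.642), with overlapping ranges. Lck was 3.52 times Fyn, the other Src-family kinase of T cells (2.89 to 4.67), and 20.5 times Lyn, a Src-family kinase of B and myeloid cells (16.8 to 26.2). Fcer1g, an ITAM adaptor of Fc receptors that can stand in for the zeta chain, was near Cd247 per kilobase. The ratio of Cd247 to Fcer1g was 0.819 (0.732 to 1.04), and Fcer1g was the higher in 15 of 16. Before division by length the median CPM were 112.5 for Cd247 (5329 bases) and 21.9 for Fcer1g (874 bases). In bulk RNA, few cells with much of a transcript cannot be told apart from many cells with little.

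These levels were set beside the label. Of 13 markers of pro-B cells, 5 were above the receptor percentile in 16 of 16 libraries: Vpreb3, Rag1, Dntt, Il7r and Kit, of which Rag1, Dntt, Il7r and Kit are shared with early T cells. Pax5 and Ebf1, transcription factors that define the B lineage, were above it in 0 of 16, as was Ighm, the mu heavy chain. Of 14 genes listed as markers of mature T cells, 10 were above it in 16 of 16, with medians of 217 CPM per kb for Tcf7 and 36.2 for Bcl11b. Cd28 was above it in 13 of 16, Trac in 10 of 16, and Cd5 and Cd6 in 0 of 16. The sum of the pro-B list was 465 to 818 CPM and that of the T-cell list 1166 to 1474 over all libraries, with overlapping group ranges. Most of the first sum came from Rag1, Kit, Il7r and Dntt (median CPM 270.8, 137.2, 80.4 and 57.6). Most of the second came from Tcf7 (570.6) and Bcl11b (293.6). The sums therefore do not set the B lineage beside the T lineage. Of 12 markers of NK and innate lymphoid cells, Gzma (48.2 CPM per kb) was above the percentile in 16 of 16 and 7 were in 0 of 16. The RNA therefore went against the pro-B label at its defining genes, in libraries of all 4 groups; what part other cells in the sort had in this was not tested.

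Around the members, most of the same pathway was also measured above the receptor percentile, a bar near the middle of the coding genes. Of 14 kinases and phosphatases that act around Lck and Zap70, 13 were above the receptor percentile in 16 of 16 libraries, among them Csk, which restrains Lck (33.2 CPM per kb), Ptprc, which encodes CD45 (22.8), and Fyn (21.7). Of 19 partners of the LAT and SLP-76 complex, 18 were, led by Fyb (42.0), Dgkz (41.8), Grap2, which links LAT to SLP-76 (39.0), and Vav1 (31.1). Of 9 genes of the NFAT, NF-kB and CARMA1 steps, 8 were. A median of at least 1 CPM per kb was reached by 13, 17 and 7 genes of these lists in turn. The coreceptors and costimulators were uneven: 5 of 11 were above it in 16 of 16, with Cd27 at 17.4, Cd2 at 17.2, Cd8b1 at 6.22, Cd4 at 2.20 and Cd8a at 1.64 CPM per kb. Of the 14 B-cell receptor counterparts, 3 were: Plcg2 (21.7), Syk (3.40) and Lyn (3.87).

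**Figure D3:**
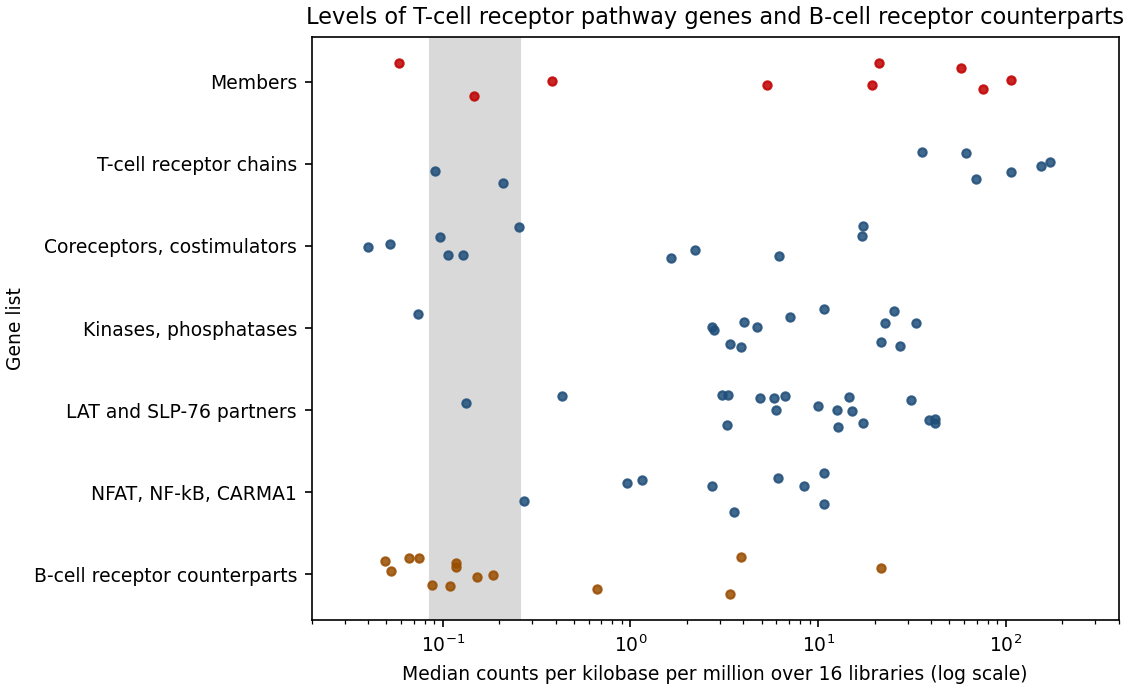
Median counts-per-kilobase-per-million over 16 libraries (log scale) of the 9 genes (red), 5 lists of T-cell receptor pathway genes (blue) and their B-cell receptor counterparts (brown), 1 point per gene; vertical scatter only separates points, and the grey band is the range of the receptor genes' 95th percentile. Most kinases and LAT partners lie to the right of the band, as do 6 of the 9 members from 5.35 upward, while 3 of the 14 B-cell counterparts lie above 1.

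The first comparison asked whether the genes differed between niches. Over both cell types, 0 of the 8 tested members had an adjusted p under 0.05 (edgeR's quasi-likelihood test), and so did 0% of all 18878 tested genes. Cd3e, with a mean of 6.75 counts, fell below the minimum of 10 and was tested only without that filter. At an unadjusted p under 0.05 there were 0 members, against 9.15% of all genes. DESeq2 called 0 members and 40 of all 18878 genes. The median log2 change, CNS minus BM, was 0.00 over the members tested and 0.00 over all genes.

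For the abundant members the intervals were narrow. Lck changed by a log2 value of −0.00 with a 95% interval of −0.11 to 0.11 (edgeR adjusted p 0.999), which as a fold is 0.925 to 1.08. The intervals of Cd247 (−0.16 to 0.16), Zap70 (−0.15 to 0.17), Lat (−0.14 to 0.08) and Thy1 (−0.20 to 0.13) were of the same order. For all 6 abundant members the interval lay within 0.870-fold to 1.35-fold. The upper end belonged to Lcp2, at a log2 change of 0.17 (−0.11 to 0.44; edgeR adjusted p 0.768).

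Lcp2 was higher in the CNS library in 6 of the 8 pairs of libraries that share a description code in the labels. These codes, called stems here, join a BM and a CNS library of 1 replicate number and cell type, and the labels do not say what they stand for. In LK cells Lcp2 was higher in the CNS in 4 of 4 stems, from 19.7 to 23.4, 24.0 to 25.9, 22.9 to 28.4 and 29.4 to 30.2 CPM. In LSK cells it was so in 2 of 4, and without BM LSK replicate 4 the LSK change moved from 0.16 to 0.36 (edgeR adjusted p 0.907). Lck was higher in the CNS in 5 of 8 stems and Thy1 in 4 of 8. The niche intervals above leave this pairing out. With the stem as a replicate block the SEs of all 6 abundant members were smaller, so the intervals above may be too wide for them. In that fit Lcp2 had an interval of 0.05 to 0.30 (edgeR unadjusted p 0.0107, adjusted 0.230). It called 0 of 8 members and 126 of all 18878 genes. The share of all genes higher in the CNS in 4 of 4 stems was not counted, here or for the members below.

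**Figure D4:**
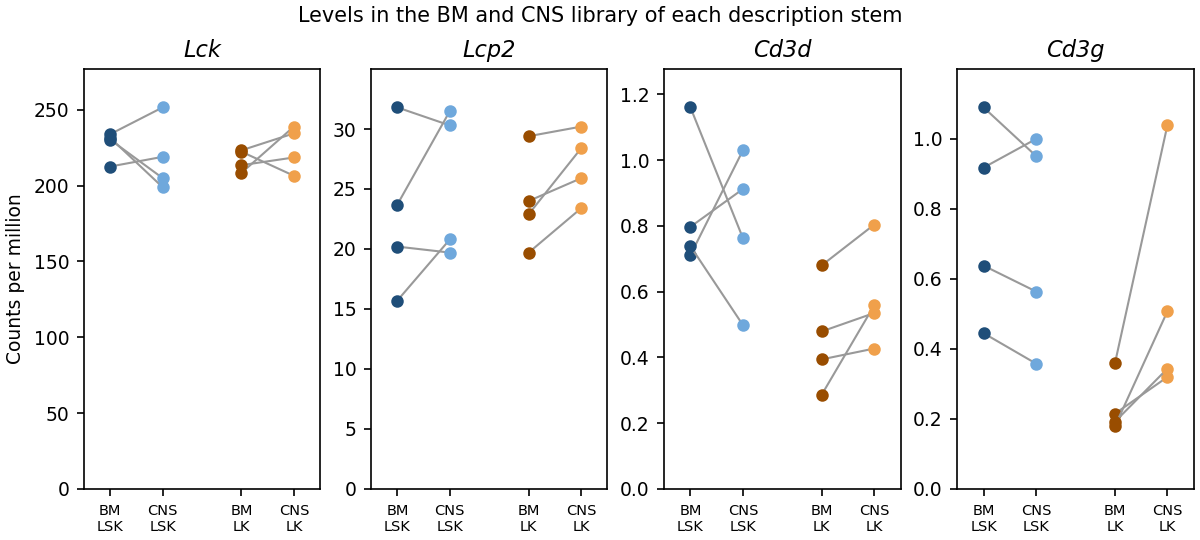
Counts-per-million of Lck, Lcp2, Cd3d and Cd3g in each library, with a grey line joining the BM and CNS library of each description stem; LSK on the left and LK on the right of each panel, 4 stems each, on axes that start at 0. Lines of Lck and of the LSK cells run both ways, while Lcp2, Cd3d and Cd3g are higher in the CNS in 4 of 4 LK stems. For Cd3d this rests on few counts in BM and CNS: 11 and 8, 19 and 19, 6 and 13, and 12 and 16 in LK stems 1 to 4. The share of all genes with this pattern was not counted.

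Within LSK cells 0 of 8 members passed (0% of all genes; edgeR), with 0 at an unadjusted p under 0.05 against 5.74% of all genes, and DESeq2 called 0. Within LK cells 0 of 8 passed (0% of all genes; edgeR), DESeq2 called 0 members, and 1 member, Cd3g, had an unadjusted p under 0.05, against 3.99% of all genes. Cd3g had 0.552 ± 0.333 CPM in CNS LK and 0.236 ± 0.0832 in BM LK (SD, n = 4), a log2 difference of 1.25 ± 0.48 (SE; edgeR adjusted p 1.00). It was higher in the CNS in 4 of 4 LK stems and in 1 of 4 LSK stems. Without CNS LK replicate 4, which alone had 1.04 CPM, the difference was 0.72.

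The difference of the niche changes between LSK and LK was tested directly. It passed for 0 of 8 members (0% of all genes; edgeR, and 0 members with DESeq2). Cd3g, at −1.35 ± 0.65 (log2, SE; edgeR adjusted p 1.00), was the only member at an unadjusted p under 0.05 (0.0496), against 1.49% of all genes. Cd3e, fitted without the filter, had 0.424 ± 0.187 CPM in CNS LSK and 0.145 ± 0.168 in BM LSK, a log2 difference of 1.38 with an interval of 0.01 to 2.74 (edgeR adjusted p 0.712). Its CNS library was the higher in 4 of 4 LSK stems and 2 of 4 LK stems. The summed receptor genes moved the same way: 396 to 581 CPM in CNS LSK against 175 to 446 in BM LSK, and 213 to 512 in CNS LK against 187 to 266 in BM LK. Their part in the differences of Cd3g and Cd3e was not tested.

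The second comparison asked whether LSK and LK cells differed. Over both niches 0 of 8 members passed, as did 0.238% of all genes (edgeR). DESeq2 called 0 members and 222 of all 18878 genes. At an unadjusted p under 0.05 there were 2 members, Cd3g and Cd3d, against 12.1% of all genes. Cd3g had a mean of 0.745 CPM in the 8 LSK libraries and 0.394 in the 8 LK libraries, a log2 difference of 1.02 ± 0.32 (SE; edgeR adjusted p 0.203). Cd3d had 0.827 and 0.521 CPM, a log2 difference of 0.67 ± 0.25 (SE; edgeR adjusted p 0.285). Both SEs treat the BM and CNS libraries of a stem as independent, and may be too small if these share a source. With counts summed per stem, the 45 calls over all genes became 0.

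Within BM these differences were wider. Cd3g had 0.772 ± 0.286 CPM in BM LSK and 0.236 ± 0.0832 in BM LK (SD, n = 4), a log2 difference of 1.70 with an interval of 0.70 to 2.69 (edgeR adjusted p 0.509). Cd3d had 0.853 ± 0.211 and 0.460 ± 0.166 CPM, a log2 difference of 0.88 with an interval of 0.15 to 1.61 (edgeR adjusted p 0.733). The LSK and LK libraries did not overlap for either gene, which held for 3.13% of all genes. Again 0 of 8 members passed (0% of all genes; edgeR), and 2 had an unadjusted p under 0.05 against 6.38% of all genes. DESeq2, which gave no adjusted p for Cd3g or Cd3d here, called 0 of the other members and 39 of all 18878 genes. The receptor genes summed to 175 to 446 CPM in BM LSK and 187 to 266 in BM LK, and their part in the difference was not tested.

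Within the CNS the groups overlapped for both genes. Cd3g differed by 0.34 with an interval of −0.57 to 1.26 (log2, edgeR adjusted p 0.895), and by 0.87 without CNS LK replicate 4. Cd3d differed by 0.45 with an interval of −0.27 to 1.18 (edgeR adjusted p 0.817). Here 0 of 8 members passed (0% of all genes; edgeR), and 0 had an unadjusted p under 0.05, against 6.58% of all genes. DESeq2 called 0 members and 6 of all 18878 genes. The comparisons within BM and within the CNS were set against each other only through the interaction given above.

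The 6 abundant members did not pass between LSK and LK in any fit, and over both niches their log2 differences ran from −0.09 to 0.01. Their intervals lay within 0.789-fold to 1.15-fold. The widest was that of Lcp2 (−0.34 to 0.20), and that of Lck was −0.10 to 0.12. These intervals treat the 16 libraries as independent. Over genes averaging 50 or more counts, the libraries of a stem deviated together in 8 of 8 stems (correlation 0.336 to 0.616). The intervals may therefore be too narrow.

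**Figure D5:**
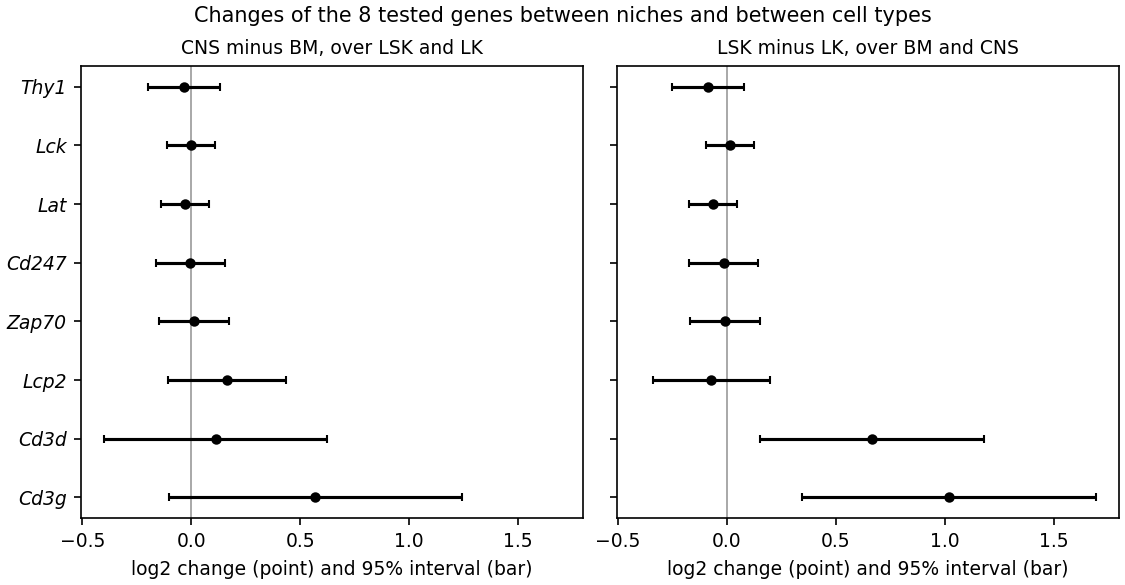
log2 change (point) and 95% interval (bar) from the fit of all genes for the 8 tested members, CNS minus BM over both cell types (left) and LSK minus LK over both niches (right). The 6 abundant genes lie near 0 with short bars, and Cd3d and Cd3g have long bars that on the right lie above 0; neither passed after adjustment over all genes.

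The rest of the pathway was counted in the same fit between niches over both cell types. Of the T-cell receptor chains 0 of 7 tested genes passed in either direction, of the coreceptors and costimulators 0 of 9, of the kinases and phosphatases 0 of 13, of the LAT and SLP-76 partners 0 of 18, of the NFAT, NF-kB and CARMA1 genes 0 of 9, of the B-cell receptor counterparts 0 of 7 and of the other ITAM adaptors 0 of 3 (edgeR). In the fit with the stem as a block, which called 0.667% of all genes and 0 of 8 members, 1 coreceptor gene passed (Ctla4, higher in the CNS; edgeR adjusted p 0.000123) and 1 B-cell receptor counterpart (Syk, lower in the CNS; edgeR adjusted p 0.0347). Unadjusted p-values under 0.05 numbered 1, 3, 0, 1, 1, 3 and 0 in these lists, beside 9.15% of all genes. Their median log2 changes were −0.00, 0.12, −0.00, −0.01, −0.03, −0.04 and −0.01, beside 0.00 over all genes. Between LSK and LK over both niches 0 genes of these lists passed either (edgeR), beside 0.238% of all genes, with 0, 1, 2, 0, 0, 2 and 0 at an unadjusted p under 0.05, beside 12.1% of all genes.

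How the members varied together from library to library is described without a test. Cd247 and Thy1 went together most closely, with a Pearson's r of 0.929 between their log2 levels over the 16 libraries; of 11639 genes, Thy1 was the one most like Cd247. Sept1 came next for Cd247 (0.916). For Thy1 itself Grcc10 (0.969) and Selplg, which encodes a selectin ligand (0.938), came first. The genes most like Lcp2 were Pik3cg, a phosphoinositide kinase of leukocytes (0.937), and Cd53, a leukocyte tetraspanin (0.926). For Lck they were Cuta (0.875) and Kbtbd4 (0.874), for Zap70 Il12rb1 (0.862) and Patz1 (0.855), and for Lat Spata5 (0.880) and Copa (0.879). Zap70 and Lat, which act in sequence, did not follow each other (r of 0.01). Libraries of 1 stem may share their source, so the 16 points are not independent.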

How the data were processed

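RNA from freshly sorted cells was made into stranded total-RNA libraries with a low-input kit, as the labels' protocols say. The submitters' processing notes name GRCm39 and DESeq2; the aligner, counter, annotation and any use of strand or molecular identifiers are not given in the sources used here. The deposited values were whole-number counts per Ensembl identifier and were treated as raw counts, since library totals ran from 19.2 to 29.2 M; the file's own name calls them normalised. Each of the 16 columns matched 1 sample by its label, and 0 were left unused.

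Exon lengths and coordinates came from GENCODE vM21 (GRCm38), with a length for 52133 of 55414 identifiers. Symbols came from a separate list of gene names, matched by identifier for 52081. The 18878 identifiers averaging 10 or more counts were fitted in edgeR 4.0.16 (R 4.3.3; DESeq2 1.42.0 as an alternative) as 4 group means with TMM factors and no block, with 7 contrasts (two-sided quasi-likelihood test, Benjamini-Hochberg over all fitted identifiers, threshold 0.05). The code was tested on simulated data. Replicates differed by more than counting noise (chi-square per degree of freedom 11.0 to 42.4). The members and lists were chosen with earlier results of these data known. Named genes are the 9 members, listed genes that passed with or without a block, 11 fixed reference genes (the values of some listed genes are not reported here), and the 2 genes most like each member with a mean of at least 50 counts, on log2(CPM + 0.5). List genes given by level were chosen after their values were seen. Where copies or overlapping genes can share reads, values are uncertain. Protein sequences were not used here. Alternatives were other scaling, no filter, DESeq2, blocks and leaving out each library.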

Additional observations from a re-analysis of the deposited data

Results flagged for a closer look

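Each gene's 4 values in a group were screened for a lowest or highest library standing apart from the other 3, by Dixon's ratio of gap to range at its 95% critical value. Of 36 sets of values (9 genes in 4 groups) 2 held such a library, and chance gives 1.8. Lck was lower in BM LSK replicate 2, at 212.6 CPM, than in the other BM LSK libraries (230 to 234). Thy1 was higher in BM LK replicate 3, at 364.6 CPM, than in the other BM LK libraries (317 to 321).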

How the results depend on the processing

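Over 1438 alternative values of the 56 member results (8 genes in 7 comparisons), 0 passed an adjusted p of 0.05, 1428 stayed within 1 SE of the value as planned and 10 moved further; the cause was not tested. The smallest adjusted p was 0.0761 (edgeR), for Cd3g between LSK and LK over both niches when the title number was the replicate block (log2 difference 1.04). Summing counts per stem, identifiers with a symbol only, and the stem block without each stem were chosen after seeing the data.

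Same-stem libraries deviated together with a correlation over 0.1 in 5 of 8 stems over genes averaging 10 or more counts, and in 8 of 8 over those averaging 50 or more (0.336 to 0.616). The stems thus met a minimum of 0.1 in every pair only over the more abundant genes, and no label explains the stem codes, so the fit without the block stayed the primary one. With the stem as a replicate block Lcp2 had a log2 niche change of 0.17 (edgeR unadjusted p 0.0107, adjusted 0.230). Of the pathway lists this block called Ctla4, an inhibitory receptor (3.89; edgeR adjusted p 0.000123; LK 5.19, 0.000956), from 0 to 95 counts per library, and Syk (−0.28; 0.0347); of the marker lists it called Dntt (0.97; 9.98e-06; LSK 0.95, 0.00258; LK 1.00, 0.000956) and Gata3 (0.25; 0.00771; LSK 0.33, 0.0407).

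Over all genes, the 0 calls between niches became 85 without the filter on low counts, 126 with the stem as replicate block and 40 with DESeq2. Within LSK they became 10 without the filter and 26 with the block, and within LK 14 and 12. Between LSK and LK the 45 calls became 290 without the filter, 162 with the title number as replicate block, 222 with DESeq2 and 0 with counts summed per stem. Leaving out 1 library gave 15 (without CNS LK replicate 3) to 137 (without CNS LSK replicate 2). Within BM the 0 calls became 48 without the filter and 39 with DESeq2, and 0 to 2 with a library left out; within the CNS they became 38 and 6, and 0 to 13. At 0 to 33 counts per library, depth limits what Cd3d, Cd3g and Cd3e can show.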
